A study of Mus musculus with 4 samples.

Results

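Alveolar fibroblasts are the connective tissue cells of the alveolar wall. They were picked from the 4 scRNA-Seq libraries of the study by their transcripts. A cell barcode was taken as an alveolar fibroblast when it had 200 to 7500 detected genes, at most 10% mitochondrial UMIs (unique molecular identifiers, 1 per captured RNA molecule) and at least 1 UMI of the collagen gene *Col1a2*. It also needed UMIs of at least 3 of the 5 markers *Col13a1*, *Npnt*, *Tcf21*, *Itga8* and *Ces1d*, of fewer than 2 of the adventitial markers *Pi16*, *Dpt*, *Col14a1*, *Adh7* and *Scara5*, and none of *Ptprc* (leukocytes) or *Cdh5* (endothelium). This left 1160 cells of the 15428 deposited barcodes, or of the 11846 barcodes within the limits on genes and mitochondrial UMIs.

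The mice were wild-type male C57BL/6 animals. The paper describes restricted food for the mice aged to 22 months, to hold their body weight, and gives no diet for the young mice. The young nonventilated and aged nonventilated groups, 2 to 3 months and 22 months old, were naive controls. The young ventilated and aged ventilated groups of the same ages were anesthetized with ketamine and medetomidine, given buprenorphine, and ventilated for 3 hours with pure oxygen at a tidal volume of 20 mL/kg, capped for heavy mice, and no end-expiratory pressure. The paper also describes arterial and venous lines, an infusion of Ringer's lactate and an endotracheal tube for ventilated mice. Anesthesia, surgery, fluid, oxygen and tidal stretch therefore came together and cannot be told apart. Cells of the left lobe were frozen, thawed and pooled from 3 mice into 1 library per group. With 1 pooled library per group there is no replicate error and no test between groups. Intervals below are exact 95% intervals that cover counting error only, and a gene is called higher or lower when its share of the members' UMIs differed at least 2-fold.

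Alveolar fibroblasts lie next to the type I and type II epithelial cells and the capillaries. They build the collagen, elastin and basement membrane of the septum and secrete growth factors such as FGF10, FGF7 and WNT2 that maintain type II cells. In injured lungs, fibroblasts of this kind are known to release acute-phase proteins and chemokines and to lay down a provisional matrix with tenascin C, hyaluronan and thrombospondin.

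The young nonventilated library held 311 alveolar fibroblasts, which was 10.6% of its barcodes within the limits (95% Clopper-Pearson interval 9.48 to 11.7). The young ventilated library held 332, or 9.98% (8.98 to 11.05). The aged nonventilated library held 283, or 9.36% (8.34 to 10.4), and the aged ventilated library held 234, or 9.17% (8.08 to 10.4). These 4 intervals overlapped. In the same order, 127, 98, 129 and 52 barcodes met the other terms but were left out for at least 2 adventitial markers. Another 79, 91, 81 and 56 were left out for *Ptprc* or *Cdh5* alone. The shares and their overlap hold for this rule only. Some of the members were called mixed barcodes. These held a UMI of *Pecam1*, *Cldn5*, *Epcam*, *Tyrobp*, *Coro1a*, *Cd3e*, *Cd79a*, *Myh11* or *Msln*, which mark other cell types. Members with at least 5 UMIs of the surfactant gene *Sftpc* were also called mixed. Mixed barcodes numbered 91, 76, 134 and 71. This was 29.3% and 22.9% of the young and 47.3% and 30.3% of the aged members, nonventilated first. A UMI was enough for the label, and whether these barcodes joined several cells was not tested. In the aged nonventilated library, members with at least 5 UMIs of the endothelial list numbered 24. For the alveolar type II and leukocyte lists they numbered 6 and 5. For the smooth muscle and mesothelial lists, led there by *Tagln* and *Upk1b*, they numbered 135 and 41. Without mixed barcodes the shares were 7.48% (6.55 to 8.49) and 7.69% (6.81 to 8.65) in young mice. In aged mice they were 4.93% (4.18 to 5.76) and 6.39% (5.47 to 7.41). The interval of the aged nonventilated library then lay below both young ones, so the order of the shares depended on the mixed label. A deeper cell can meet that label more easily, and depth was not held equal. The lower share therefore cannot be read as fewer alveolar fibroblasts in aged mice. Without and with ventilation, the members carried 4334142 and 5233705 UMIs in young mice and 4908244 and 4201475 UMIs in aged mice, with medians of 14121, 15417, 17020 and 16746.5 UMIs per cell. Wherever 4 values follow each other below they keep this order, young before aged and nonventilated before ventilated, and pairs of levels are given nonventilated first. The libraries shared 23 barcode sequences in pairs, none of them among the members.

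**Figure D1:**
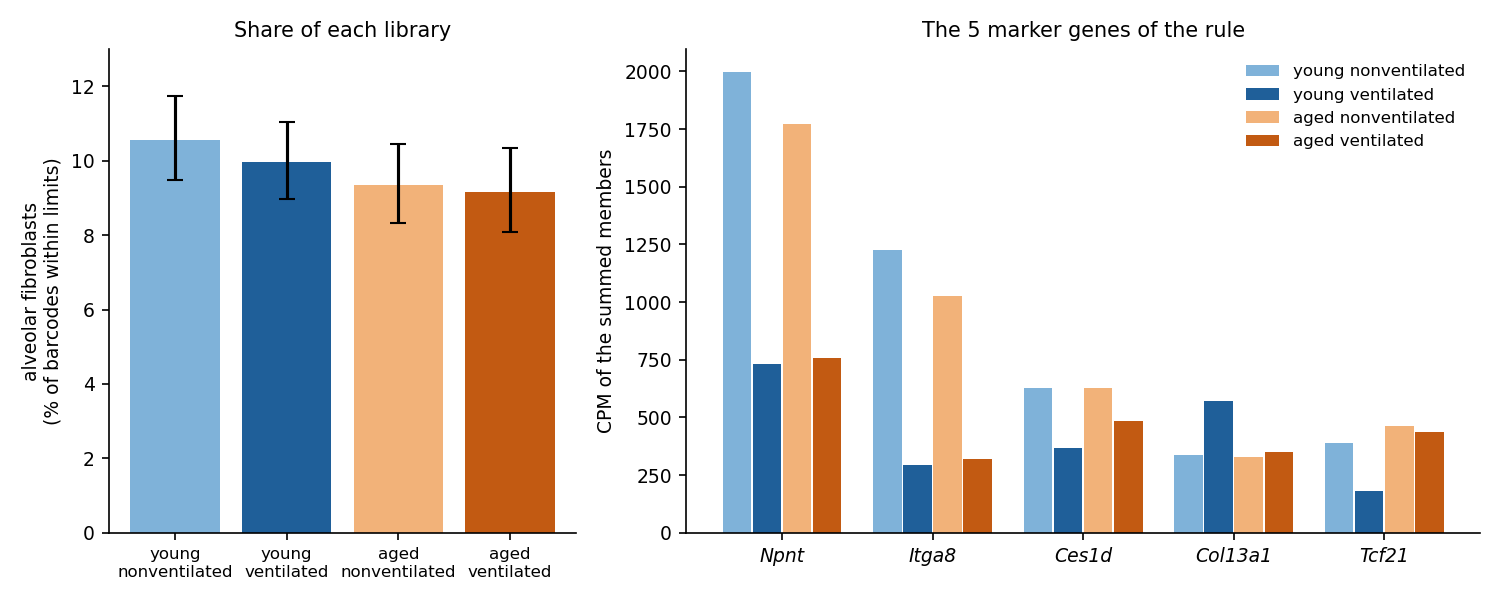
Left, alveolar fibroblasts as a percent of the barcodes within the limits in each pooled library, with exact 95% binomial intervals. Right, the level of the 5 marker genes that chose the cells, in CPM of the members' summed UMIs. The shares lie between 9.17% and 10.6% with mixed barcodes included, while *Npnt* and *Itga8* are lower in both ventilated libraries than in both nonventilated libraries.

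The label was checked against alveolar fibroblast genes that the rule did not use. Of 14 such genes, 13 had a higher level in these cells than in adventitial fibroblasts, pericytes, endothelial cells or leukocytes of the same libraries, and *Cdon* did not. *Inmt*, which encodes a methyltransferase, stood at 4352 CPM (UMIs of the gene per 1000000 UMIs of the class, all libraries together) against 1392 in adventitial fibroblasts and 7.44 in pericytes. The microfibril gene *Mfap4* stood at 2308 against 454 and 8.80 CPM, and the platelet-derived growth factor receptor gene *Pdgfra* at 947 against 355 and 2.71 CPM. The myofibroblast list summed to 151, 100.5, 119 and 115 CPM, and no gene of it reached the minimum for testing.

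Transcripts of other cell types were summed over the members, mixed barcodes included. Over 8 alveolar type II genes, they came to 34.1 and 39.7 CPM in young mice and 641.8 and 39.99 CPM in aged mice. No gene of this list was at 0 in any library, and its most abundant gene in every library was the surfactant gene *Sftpc*, at 24.9 and 28.5 CPM in young and 459 and 28.6 CPM in aged mice. A single member of the aged nonventilated library carried 74.9% of its *Sftpc* UMIs. The summed leukocyte list stood at 47.5, 49.9, 139.97 and 72.1 CPM, led by *Lyz2* at 11.998, 14.3 and 102 CPM in the first 3 libraries and by *S100a9* at 19.5 CPM in the aged ventilated library, with *Cd3e* at 0 throughout. In the aged nonventilated library 66.5% of the *Lyz2* UMIs came from 1 member. The summed pericyte list stood at 259.1, 109.7, 120.2 and 81.4 CPM, led by *Gucy1a1* in both nonventilated libraries and by *Pdgfrb* in both ventilated ones, and the endothelial list at 53.99, 30.4, 81.3 and 38.1 CPM, led by *Calcrl* in the young and by *Pecam1* in the aged libraries. The alveolar type I list summed to 66.9, 163, 182 and 40.5 CPM, the smooth muscle list to 1378, 1200.3, 1038 and 1494 CPM with *Tagln* as its most abundant gene, and the mesothelial list to 154, 53.3, 127 and 102 CPM, nearly all of it *Upk1b*, with *Wt1* and *Lrrn4* at 0. Hemoglobin genes summed to at most 8.41 CPM. Members over 5000 genes, the study's own upper limit, numbered 29, 14, 74 and 41. How far these traces enter the values of single genes was not tested, except where leaving out mixed barcodes is named below.

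To examine the effect of ventilation in young mice, the UMIs of the members were summed per library and compared. A gene was tested when it averaged 50 CPM or more over both libraries, with 20 UMIs or more in 1 of them. Of 3503 such genes, 388 were at least 2-fold higher in young ventilated than in young nonventilated alveolar fibroblasts (11.1%) and 368 were at least 2-fold lower (10.5%), together 21.6%. Among the genes with large rises were the acute-phase gene *Saa3*, the metallothionein genes *Mt1* and *Mt2* and the matrix gene *Tnc*, and among those with large falls the clock-controlled gene *Dbp* and the growth factor gene *Wnt2*. In aged mice, 179 of 3488 genes were at least 2-fold higher (5.13%) and 236 were at least 2-fold lower (6.77%), together 11.9%. Over all tested genes the log2 ratio had a median size of 0.49 at the young and 0.32 at the old age. The 2 comparisons use different libraries and share none. A gene under 50 CPM without ventilation could be tested only through its ventilated library and had to be higher there, and 172 of the 388 rises in young mice and 76 of the 179 in aged mice were of this kind. The mirror case, under 50 CPM with ventilation, held for 183 of the 368 falls in young and 116 of the 236 in aged mice. Counts for a gene list below are descriptions to be read against 11.1% of genes higher and 10.5% lower in young mice, and 5.13% and 6.77% in aged mice.

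Of the 3301 genes tested at both ages, 349 rose at least 2-fold in young mice and 169 in aged mice, and 147 did so in both. The shared genes made up 42.1% of the young list and 87.0% of the aged list. For falls, 180 genes were shared by the 350 of the young list (51.4%) and the 216 of the aged list (83.3%). No gene rose at least 2-fold at one age and fell at least 2-fold at the other in these 2 lists. The genes that rose in young mice had a median log2 ratio of 1.47 in young mice, by which they were chosen, and of 0.86 in aged mice.

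**Figure D2:**
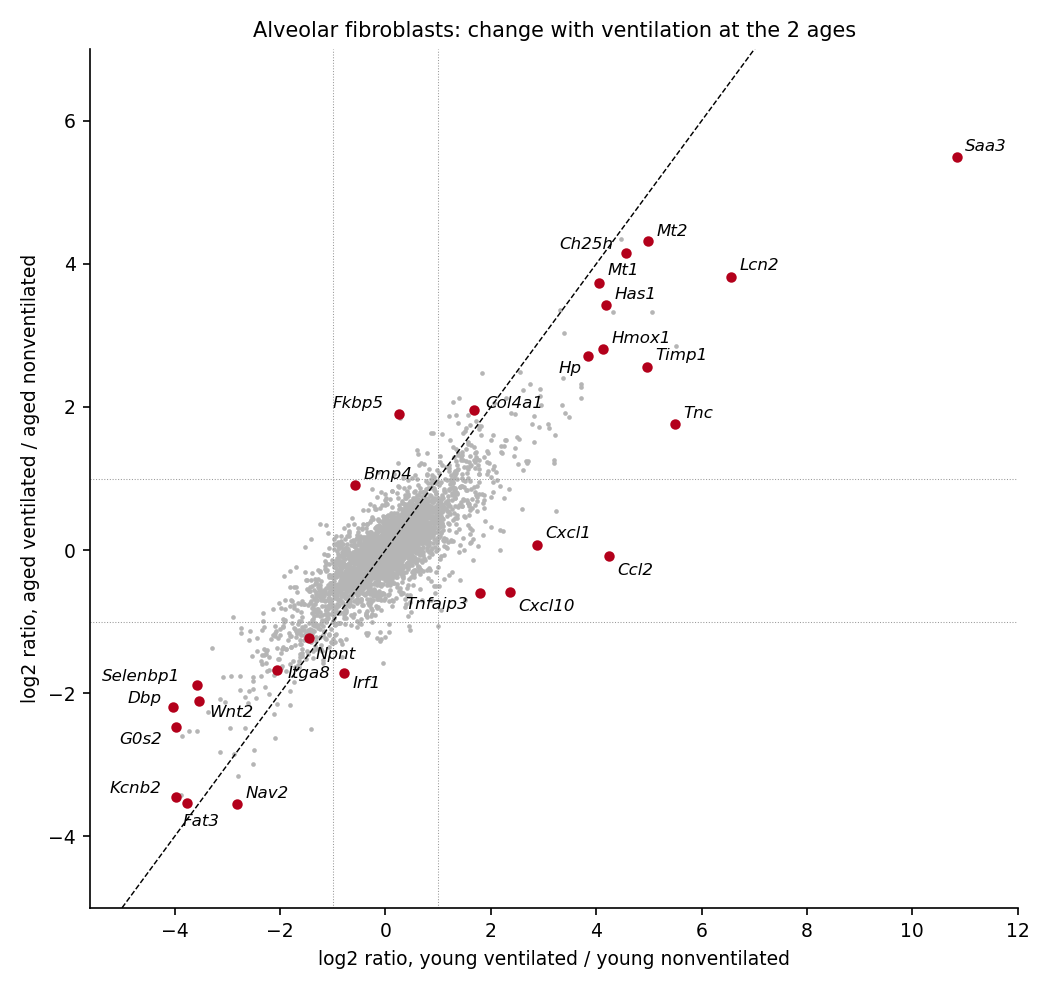
Each point is 1 of the 3301 genes tested at both ages. The horizontal axis gives the log2 ratio of ventilated to nonventilated alveolar fibroblasts in young mice and the vertical axis the same in aged mice, the dashed line marks equal change and the dotted lines mark a 2-fold change. *Mt1*, *Col4a1*, *Fat3* and *Kcnb2* lie near the line, *Saa3*, *Tnc* and *Ccl2* far to its right.

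The acute-phase serum amyloid gene *Saa3* (chr7:46711998-46715700, minus strand, mm10/GRCm38) had the largest rise at the young age. It stood at 2.08 CPM without and 4239.8 CPM with ventilation in young mice, and at 28.9 and 1307 CPM in aged mice. It was low in both nonventilated libraries and highest in the young ventilated library. The rise in young mice was 2042-fold (95% counting interval 1075 to 4466) from 9 UMIs to 22190 UMIs. In aged mice it was 45.2-fold (95% counting interval 38.2 to 53.7), with 1 member holding 90.1% of the aged nonventilated UMIs. Without the highest member of each library the aged log2 ratio moved from 5.49 to 8.59, and the young one from 10.84 to 13.07. *Saa1*, a related acute-phase gene, rose from 3 to 1039 UMIs in young mice and went from 1 to 127 in aged mice, where it was too low for testing, a ratio of 287-fold (95% counting interval 97.9 to 1393) in young mice and of 148-fold (95% counting interval 26.2 to 5906) in aged mice.

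*Saa3* was also unevenly spread among the cells. A UMI of it was found in 51.8% of young ventilated and 29.1% of aged ventilated members, against 0.643% and 1.41% of the nonventilated ones. With every cell thinned to 3000 UMIs, which left out between 3 and 20 shallower members per library, the shares were 44.1% (95% interval 38.6 to 49.6) and 19.2% (14.3 to 24.9) in the ventilated libraries. Pericytes, which had no *Saa3* UMI without ventilation, had one in 8.64% and 5.77% of the ventilated cells, at median depths of 5646 and 6612.5 UMIs against 15417 and 16746.5 in the alveolar fibroblasts. Endothelial cells, also shallower, had one in 10.4% and 8.62%. Adventitial fibroblasts had one in 15.4% of 13 young and 18.2% of 11 aged ventilated cells, 2 UMIs in each library, at median depths of 17734 and 10823 UMIs. So few adventitial cells, not thinned to the same depth, do not allow these shares to be compared with those of the alveolar fibroblasts. The adventitial level in aged ventilated mice was 16.01 CPM against 1307 CPM. The 10% of the members with most *Saa3* UMIs held 62.8% of all *Saa3* UMIs in the young and 89.1% in the aged ventilated library.

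The promoter of *Saa3* was searched for letter patterns of transcription factors that are known to drive acute-phase genes. The window runs from 250 bases before to 50 after the transcription start (RefSeq, GRCm38.p6, chr7:46715627-46715926, minus strand). It is shown because this gene had the largest rise in young mice. Among genes tested in aged mice and ranked by the rule for named genes, its rise was the second largest, after *Serpina3f*. *Saa1*, too low for testing there, was not ranked. The single match to the C/EBP-like pattern TTGCNNAA on either strand is in capitals.
Saa3: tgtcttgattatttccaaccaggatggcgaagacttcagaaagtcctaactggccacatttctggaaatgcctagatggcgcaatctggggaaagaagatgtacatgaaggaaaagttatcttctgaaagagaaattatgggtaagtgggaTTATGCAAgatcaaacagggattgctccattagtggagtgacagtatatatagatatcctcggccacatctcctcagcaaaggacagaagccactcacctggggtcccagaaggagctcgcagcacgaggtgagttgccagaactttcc
This pattern was present in 10.8% of 32851 promoter windows of the same length. The AP-1 pattern TGANTCA, the STAT pattern TTCNNNGAA and a loose kappaB pattern of 3 G, any 5 bases and 2 C had no match in this window and occurred in 7.81%, 8.3% and 50.8% of all windows. A match is a description of letters and does not show that a factor was bound.

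The metallothionein genes *Mt1* and *Mt2* encode small proteins that bind zinc and copper and lie next to each other on chromosome 8 (chr8:94179082-94180327 and chr8:94172664-94173568, plus strand, GRCm38). *Mt1* stood at 1389.7 CPM without and 23032 CPM with ventilation in young mice, and at 1816 and 24129 CPM in aged mice. *Mt2* stood at 175 CPM without and 5522 CPM with ventilation in young mice, and at 268 and 5367 CPM in aged mice. Both ventilated libraries were far above both nonventilated ones, and the young and aged ventilated libraries lay close to each other. *Mt1* rose 16.6-fold (95% counting interval 16.1 to 17.01) in young and 13.3-fold (95% counting interval 13.001 to 13.6) in aged mice. *Mt2* rose 31.6-fold (95% counting interval 29.4 to 34.03) and 20.1-fold (95% counting interval 18.97 to 21.2). These transcripts were spread more evenly over the cells than *Saa3*. An *Mt1* UMI was found in 53.4% and 73.5% of nonventilated and in 100% and 99.6% of ventilated members of young and aged mice, and the median member held 1 and 8 UMIs of *Mt1* without ventilation and 283 and 312.5 with it, in young and aged mice in turn. Their promoter windows (RefSeq, GRCm38.p6, plus strand, chr8:94178839-94179138 and chr8:94172368-94172667) are shown with the metal response element cores TGCACNC and TGCGCNC, on either strand, in capitals.
Mt1: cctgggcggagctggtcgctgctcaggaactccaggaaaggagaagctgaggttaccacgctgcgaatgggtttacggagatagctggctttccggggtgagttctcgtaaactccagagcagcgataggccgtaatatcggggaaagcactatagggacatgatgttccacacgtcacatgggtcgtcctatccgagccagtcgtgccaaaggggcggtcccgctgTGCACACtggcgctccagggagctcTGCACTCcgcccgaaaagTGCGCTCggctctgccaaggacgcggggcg
Mt2: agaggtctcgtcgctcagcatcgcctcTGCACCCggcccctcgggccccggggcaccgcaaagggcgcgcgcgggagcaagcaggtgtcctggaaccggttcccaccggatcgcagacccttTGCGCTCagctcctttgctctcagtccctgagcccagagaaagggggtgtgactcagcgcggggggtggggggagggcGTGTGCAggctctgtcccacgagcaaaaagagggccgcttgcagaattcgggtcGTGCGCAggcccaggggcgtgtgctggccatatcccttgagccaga
The window of *Mt1* held 3 matches and that of *Mt2* 4. At least 3 matches occurred in 1.97% and at least 4 in 0.517% of the 32851 windows. The same cores were also found 4 times in the window of *Dbp* and 3 times in that of *G0s2*, genes that fell with ventilation at both ages.

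Of the 14 tested genes of the glucocorticoid and metal response list, 4 rose and 2 fell in young mice, and 5 rose in aged mice. Over all tested genes, 11.1% rose and 10.5% fell in young mice and 5.13% rose in aged mice. The 2 falls in young mice are near that share. *Slc39a14* was under 50 CPM without ventilation at both ages and *Cdkn1c*, 1 of the 2 falls, was under it with ventilation, so that their direction was fixed by the minimum. The list median was 0.32 in young and 0.36 in aged mice. The zinc importer gene *Slc39a14* rose from 30.7 to 321 CPM in young mice and from 44.4 to 237 CPM in aged ones. The kinase gene *Sgk1* rose from 95.1 to 274 CPM and from 84.3 to 275 CPM. *Fkbp5*, a chaperone gene induced by glucocorticoids, went from 153 to 184 CPM in young mice, short of the 2-fold limit, and rose from 81.1 to 303 CPM in aged mice, a difference between the log2 ratios of 1.64 (95% counting interval 1.42 to 1.85). *Tsc22d3*, another glucocorticoid-induced gene, fell from 373 to 171 CPM in young mice and went from 253 to 322 CPM in aged mice.

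The matrix genes *Tnc*, *Has1* and *Timp1* rose at both ages. Tenascin C (*Tnc*, chr4:63959785-64047015, minus strand, GRCm38), a large matrix protein deposited in wounds, stood at 25.8 CPM without and 1177 CPM with ventilation in young mice, and at 31.6 and 108 CPM in aged mice. The young ventilated library stood apart from the other 3. *Tnc* rose 45.6-fold (95% counting interval 37.8 to 55.4) in young mice and 3.41-fold (95% counting interval 2.83 to 4.12) in aged mice, and the aged log2 ratio minus the young one was -3.73 (95% counting interval -4.11 to -3.36). UMIs of *Tnc* were found in 46.1% of the young ventilated members and in 13.2%, 12.7% and 13.7% of the young nonventilated, aged nonventilated and aged ventilated ones, and in 2.61% and 0.784% of the endothelial cells of the young and aged ventilated libraries. In pericytes they were found in 13.6% of the young ventilated cells and in 0 of 52 aged ventilated cells. These aged pericytes had a median depth of 6612.5 UMIs against 16746.5 in the members, so their share cannot be compared with that of the members. Nonventilated pericytes, at median depths of 5255 and 5999 UMIs, had *Tnc* in 8.96% of the young and 7.84% of the aged cells.

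Among thinned young ventilated members with a *Saa3* UMI, 42 of 145 (28.97%, 95% Clopper-Pearson interval 21.7 to 37.1) also had *Tnc*. Among those without one, 65 of 184 (35.3%, 95% Clopper-Pearson interval 28.4 to 42.7) had it. The intervals overlapped, as they did for the hyaluronan synthase gene *Has1* and the protease inhibitor gene *Timp1*. *Lcn2*, which encodes the iron carrier lipocalin 2, was found in 25 of 145 (17.2%, 95% Clopper-Pearson interval 11.5 to 24.4) of the members with *Saa3* and in 14 of 184 (7.61%, 95% Clopper-Pearson interval 4.22 to 12.4) of those without it, intervals that also overlapped.

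*Has1* stood at 28.8 CPM without and 529 CPM with ventilation in young mice, and at 13.4 and 146 CPM in aged mice, a rise of 18.3-fold (95% counting interval 15.3 to 22.1) in young and of 10.9-fold (95% counting interval 8.43 to 14.3) in aged mice. *Cemip*, whose product breaks hyaluronan down, rose from 4.15 to 336 CPM in young mice. In aged mice it went from 5.91 to 60.2 CPM, where 1 member carried 73.1% of the aged ventilated UMIs. *Timp1*, an inhibitor of matrix metalloproteinases, stood at 22.1 CPM without and 699.7 CPM with ventilation in young mice, and at 35.04 and 208 CPM in aged mice. It rose 31.6-fold in young and 5.94-fold in aged mice, with a difference of -2.40 (95% counting interval -2.78 to -2.03) on the log2 scale.

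Of the 13 tested genes of the proteoglycan and matricellular list, 5 rose in young mice (*Tnc*, *Has1*, *Cd44*, *Thbs1*, *Vcan*) and *Ogn* fell. In aged mice 4 of 12 rose (*Has1*, *Tnc*, *Cd44*, *Thbs1*). *Tnc* and *Has1* at both ages and *Vcan* in young mice were under 50 CPM without ventilation. *Thbs1*, the gene of thrombospondin 1, which can activate latent TGF-beta, stood at 906 CPM without and 5212 CPM with ventilation in young mice, and at 1166 and 2679 CPM in aged mice. The hyaluronan receptor gene *Cd44* rose from 102 to 661 CPM in young mice and from 128 to 298 CPM in aged ones. *Vcan*, the gene of versican, rose from 22.4 to 100.1 CPM in young mice and went from 20.99 to 19.04 CPM in aged mice, and its 2 log2 ratios differed by -2.29 (95% counting interval -2.81 to -1.76). The list had median log2 ratios of -0.12 (young) and -0.01 (aged), against 0.02 and -0.01 over all tested genes. With cells of at most 5% mitochondrial UMIs, with the study's own cell limits and with at least 2 markers, the young median turned positive.

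The matrix protease list had 7 rises among 15 tested genes in young mice, *Timp1*, *Adamts4*, *Mmp19* and *Mmp3* among them, and 5 rises and 1 fall (*Adamts9*) among 15 in aged mice, against 11.1% and 5.13% of all tested genes that rose. Of the rises, *Timp1* and *Mmp19* at both ages and *Adamts4* in young mice were under 50 CPM without ventilation. The list medians were 0.69 and 0.55. The stromelysin gene *Mmp3* rose from 72.9 to 334 CPM in young mice and from 57.05 to 148 CPM in aged ones. *Adamts4*, a protease gene that acts on versican and aggrecan, rose from 31.4 to 298 CPM in young mice but started at 110.2 CPM in aged mice and reached 161 CPM.

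In the basement membrane list 3 of 10 tested genes rose and 1 fell at both ages, against 11.1% higher and 10.5% lower of all genes in young mice and 5.13% and 6.77% in aged mice. The median of the list was below 0, at -0.30 and -0.14. *Col4a1*, a chain of type IV collagen, stood at 215 CPM without and 693 CPM with ventilation in young mice, and at 181 and 704 CPM in aged mice. *Col4a2*, its partner chain, stood at 127 CPM without and 353 CPM with ventilation in young mice, and at 105 and 325 CPM in aged mice. Nidogen 1 (*Nid1*), which links laminin to type IV collagen, stood at 129.7 CPM without and 442 CPM with ventilation in young mice, and at 111 and 372 CPM in aged mice. All 3 were higher in both ventilated libraries than in both nonventilated ones. The difference between the ages in log2 ratio was -0.03 (95% counting interval -0.22 to 0.16) for *Nid1* and 0.16 (95% counting interval -0.04 to 0.36) for *Col4a2*, both intervals including 0, and 0.27 (95% counting interval 0.12 to 0.42) for *Col4a1*, further up in aged mice. *Lox*, which encodes the enzyme that crosslinks collagen and elastin, rose from 147 to 416 CPM and from 175 to 552 CPM. It was the only rise among 12 tested elastic fiber genes at either age, *Mfap5* and *Fbln5* (under 50 CPM with ventilation) fell in young mice, and the median of that list was -0.23 in young and 0.03 in aged mice. *Col4a5* fell from 99.2 to 37.4 CPM and from 88.6 to 40.5 CPM, under 50 CPM with ventilation at both ages so that it could be called only as lower, and the other 6 tested genes of the 10 stayed within 2-fold at both ages. Of 7 tested interstitial collagen genes, none rose at either age and *Col6a3* fell in young mice. *Col1a1* stood at 356 and 242 CPM in young and 293 and 274 CPM in aged mice and *Col3a1* at 414 and 297 CPM in young and 307 and 234 CPM in aged mice.

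**Figure D3:**
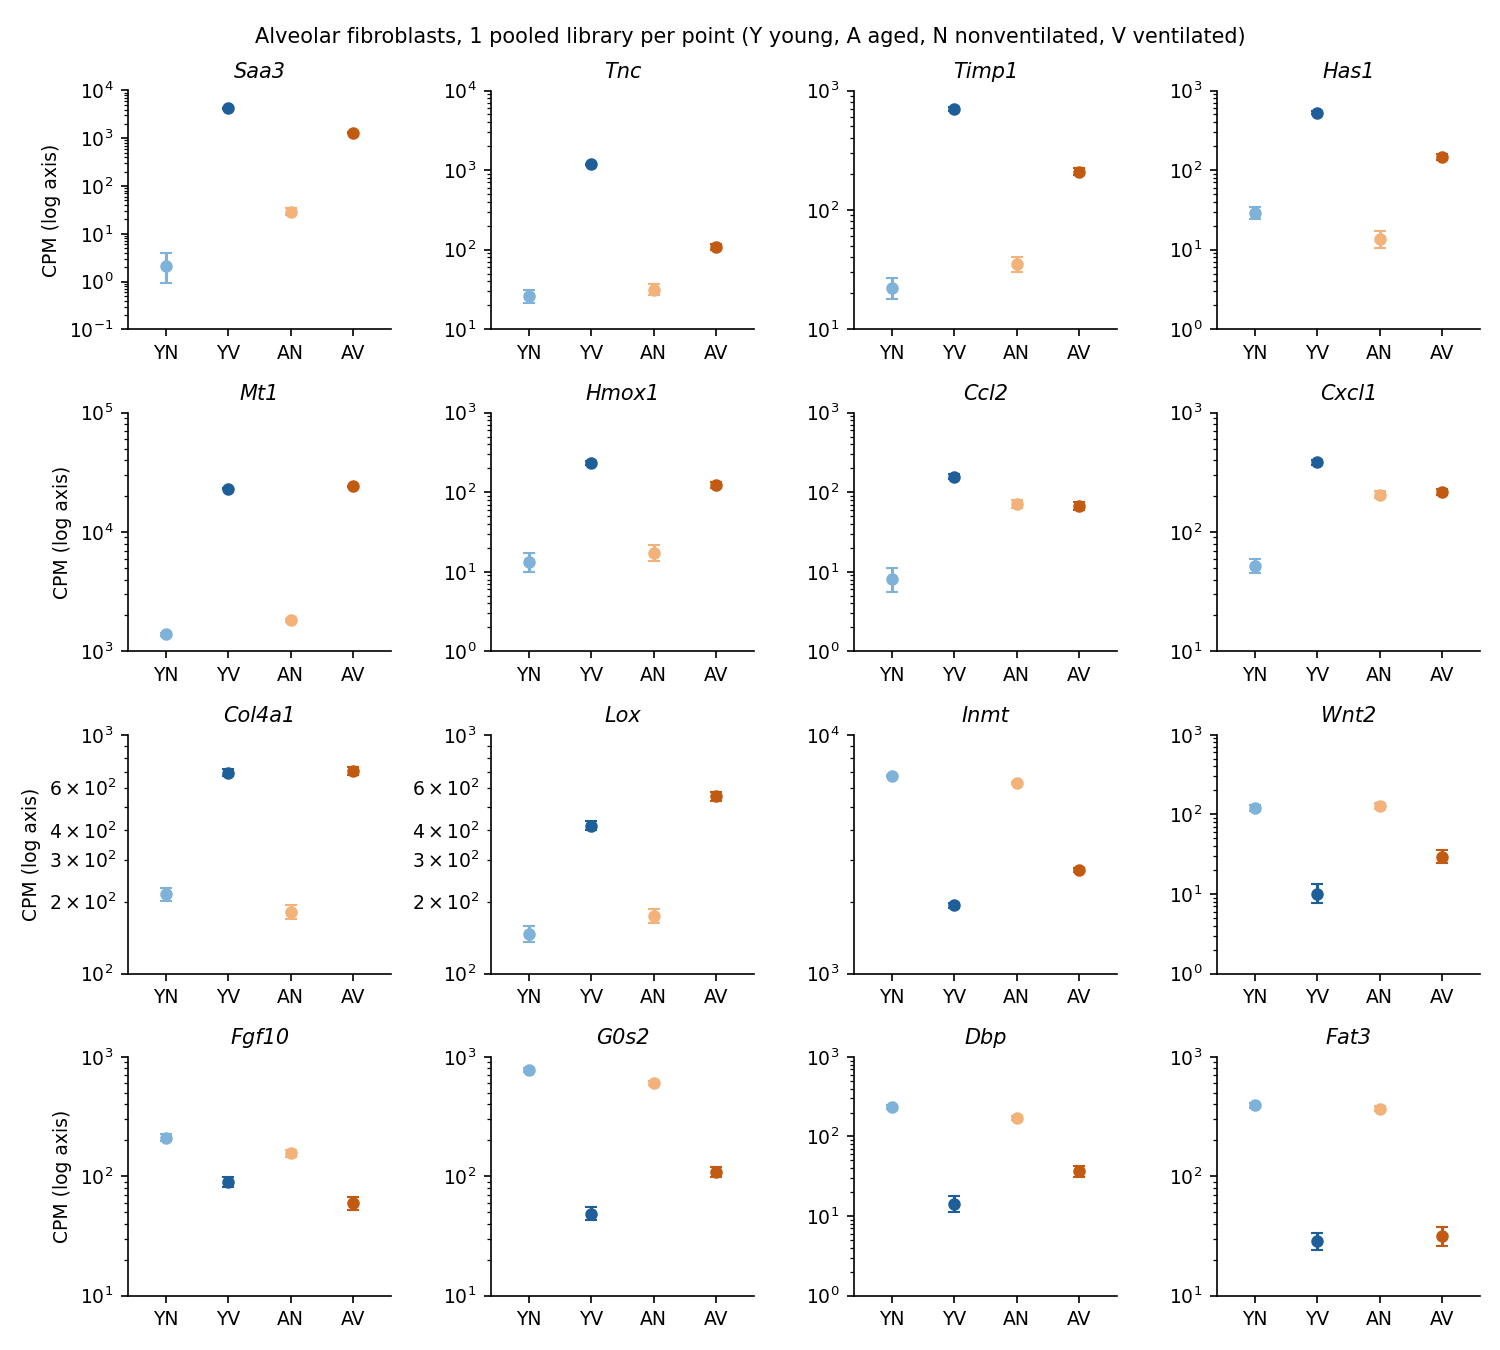
Level of 16 genes in the summed alveolar fibroblasts of each pooled library, in CPM on a log axis that differs between panels, with exact 95% Poisson intervals for counting error. *Mt1* and *Col4a1* reach like levels in both ventilated libraries, *Tnc* is high in the young ventilated library (1177 CPM), and *Ccl2* and *Cxcl1* are lower in the young nonventilated library than in the other 3.

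Cytokine and chemokine genes were higher after ventilation in young mice, while most stayed within 2-fold in aged mice. All 8 tested genes of this list were at least 2-fold higher in young ventilated fibroblasts, with a median log2 ratio of 2.39, against 11.1% of all tested genes. In aged mice *Cxcl14* alone of 7 was at least 2-fold higher, with a median of 0.08, against 5.13% of all. The other 13 of the 21 genes of the list were too low for testing in young mice, and 5 of the 8 (*Lif*, *Ccl2*, *Tslp*, *Cxcl10*, *Csf1*) were under 50 CPM without ventilation and passed the minimum through the ventilated library alone, so that they had to be higher there.

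*Ccl2*, the monocyte attractant, stood at 8.08 CPM without and 157 CPM with ventilation in young mice, and at 71.3 and 67.4 CPM in aged mice. The young nonventilated library was low, and the 2 aged libraries lay close to each other. *Ccl2* rose 19.5-fold (95% counting interval 13.9 to 28.2) in young mice, its aged ratio was 0.945-fold (95% counting interval 0.805 to 1.11), and the log2 ratios differed by -4.33 (95% counting interval -4.86 to -3.80). *Cxcl1*, the neutrophil attractant, stood at 51.9 CPM without and 384 CPM with ventilation in young mice, and at 206 and 217 CPM in aged mice. *Il6* stood at 77.1 CPM without and 262 CPM with ventilation in young mice, and at 169.9 and 177 CPM in aged mice. In both genes the aged nonventilated library was above the young nonventilated one and the aged ventilated library was close to it. *Cxcl10*, an interferon-induced chemokine gene, rose from 33.5 to 174 CPM in young mice and went from 79.1 to 52.4 CPM in aged mice. *Lif* rose from 4.61 to 99.2 CPM in young mice and went from 5.297 to 17.1 CPM in aged mice, where it was too low for testing. *Tslp*, an epithelial-type cytokine gene, rose from 31.8 to 169 CPM and went from 36.7 to 48.6 CPM, and 1 young ventilated member held 30.3% of its UMIs there. *Csf1* rose from 29.99 to 109.7 CPM in young mice and *Cxcl14* from 543 to 1566 CPM in young mice and from 454 to 1211 CPM in aged ones.

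The NF-kB feedback and acute-phase list had 14 of 19 tested genes higher in young mice, against 11.1% of all, and 5 of 18 in aged mice, against 5.13%. Of these, *Nfkb2*, *Tnfaip3*, *Saa1*, *Saa3*, *Lcn2* and *Bcl3* in young mice and *Saa3* and *Lcn2* in aged mice were under 50 CPM without ventilation, so that they had to be higher, which leaves 8 and 3 rises of genes at 50 CPM or more. The list had median log2 ratios of 1.48 and 0.14. *Nfkb1*, which encodes the p105 precursor of the p50 subunit, stood at 373 CPM without and 1675 CPM with ventilation in young mice, and at 655 and 654 CPM in aged mice. Its rise was 4.495-fold (95% counting interval 4.26 to 4.74) in young mice, and the aged ratio was 0.998 (95% counting interval 0.948 to 1.05). The inhibitor gene *Nfkbia* rose from 278 to 639 CPM in young mice and went from 460.4 to 360.4 CPM in aged mice, and *Tnfaip3*, the gene of the deubiquitinase A20, rose from 30.9 to 109 CPM and went from 61.7 to 40.7 CPM. Members of the list that rose at both ages were *Saa3*, *Lcn2*, the mitochondrial superoxide dismutase gene *Sod2* (from 145 to 940.1 CPM and from 263 to 622 CPM), the interleukin 1 receptor gene *Il1r1* and *Tnfaip2*.

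Of 7 tested genes of the oxidative stress list, 4 rose in young mice (*Hmox1*, *Gclc*, *Gclm*, *Txnrd1*) and 3 in aged mice (*Hmox1*, *Gclc*, *Gclm*). *Hmox1* and *Gclm* were under 50 CPM without ventilation at both ages, which leaves *Gclc* and *Txnrd1* in young and *Gclc* in aged mice. Heme oxygenase 1 (*Hmox1*) stood at 13.2 CPM without and 233 CPM with ventilation in young mice, and at 17.3 and 123 CPM in aged mice. *Gclc*, the catalytic subunit gene of glutathione synthesis, rose from 60.9 to 388 CPM and from 101 to 239 CPM. The cell cycle inhibitor gene *Cdkn1a* rose from 57.7 to 261 CPM in young mice and went from 126 to 235 CPM in aged mice. *Gadd45a*, a DNA damage response gene, rose from 30.5 to 149 CPM and from 43.6 to 191 CPM, a difference of -0.16 (95% counting interval -0.50 to 0.18).

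Other genes with large rises were *Ch25h*, *Serpina3f*, *Serpina3g*, *Serpina3m*, *Ifi205*, *Kazn* and *Lcn2*. *Ch25h*, the gene of cholesterol 25-hydroxylase, stood at 14.997 CPM without and 359 CPM with ventilation in young mice, and at 13.4 and 242 CPM in aged mice. The serine protease inhibitor genes *Serpina3f*, *Serpina3g* and *Serpina3m* are close paralogs whose reads can be split between copies. *Serpina3f* stood at 1.38 and 75.1 CPM in young and 1.22 and 103 CPM in aged mice, *Serpina3g* at 5.54 and 192 CPM in young and 16.3 and 166 CPM in aged mice and *Serpina3m* at 11.8 and 119 CPM in young and 19.2 and 199 CPM in aged mice. The interferon-induced gene *Ifi205*, also of a multigene family, stood at 2.08 and 105 CPM in young and 15.9 and 116 CPM in aged mice, and *Kazn*, the gene of kazrin, at 2.77 and 141 CPM in young and 5.91 and 78.8 CPM in aged mice. In all of these the 2 ventilated libraries were above the 2 nonventilated ones. *Lcn2* stood at 0.923 and 109 CPM in young and 11.2 and 161 CPM in aged mice, and 1 aged nonventilated member held 50.9% of its UMIs there.

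Interferon response genes had 4 rises among 11 tested in young mice (*Isg15*, *Gbp7*, *Gbp2*, *Iigp1*) and 1 rise and 2 falls among 9 in aged mice. *Isg15*, *Gbp7* and *Gbp2* were under 50 CPM without ventilation in young mice, and *Iigp1* alone of the 4 was not. The list medians were 0.94 and -0.05. The aged rise was *Ifit1*, also under 50 CPM without ventilation, for which 1 member held 87.6% of the aged ventilated UMIs. *Irf1*, a transcription factor gene of the pathway, fell from 465 to 140.4 CPM in aged mice. In young mice *Irf1* went from 293 to 169 CPM. TGF-beta and activin pathway genes had 4 rises among 14 tested in young mice (*Tgfb1*, *Fstl1*, *Ltbp1*, *Smad3*) and none among 11 in aged mice, and *Tgfb1* was under 50 CPM without ventilation. The ligand gene *Tgfb1* rose from 29.5 to 86.4 CPM in young mice. *Ltbp1*, which encodes a protein that anchors latent TGF-beta to the matrix, rose from 391 to 927 CPM and went from 529.5 to 577 CPM in aged mice.

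No gene of 15 tested YAP and SRF targets was at least 2-fold changed in young mice, and *Crim1* fell in aged mice. *Ccn1* and *Ccn2*, which encode matricellular proteins induced by stretch in cultured cells, stood at 1274 and 818 CPM in young and 995 and 699.8 CPM in aged mice and at 417 and 229 CPM in young and 341 and 188 CPM in aged mice, lower in both ventilated libraries than in the nonventilated library of the same age. Of 20 tested immediate early genes, 5 rose in young mice (*Ier5*, *Egr2*, *Fosl2*, *Ier3*, *Klf4*), a larger share than the 11.1% of all genes, with *Egr2* under 50 CPM without ventilation, and none of 19 rose or fell in aged mice. *Fos* stood at 2938 and 2415 CPM in young and 3025 and 2551 CPM in aged mice.

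**Figure D4:**
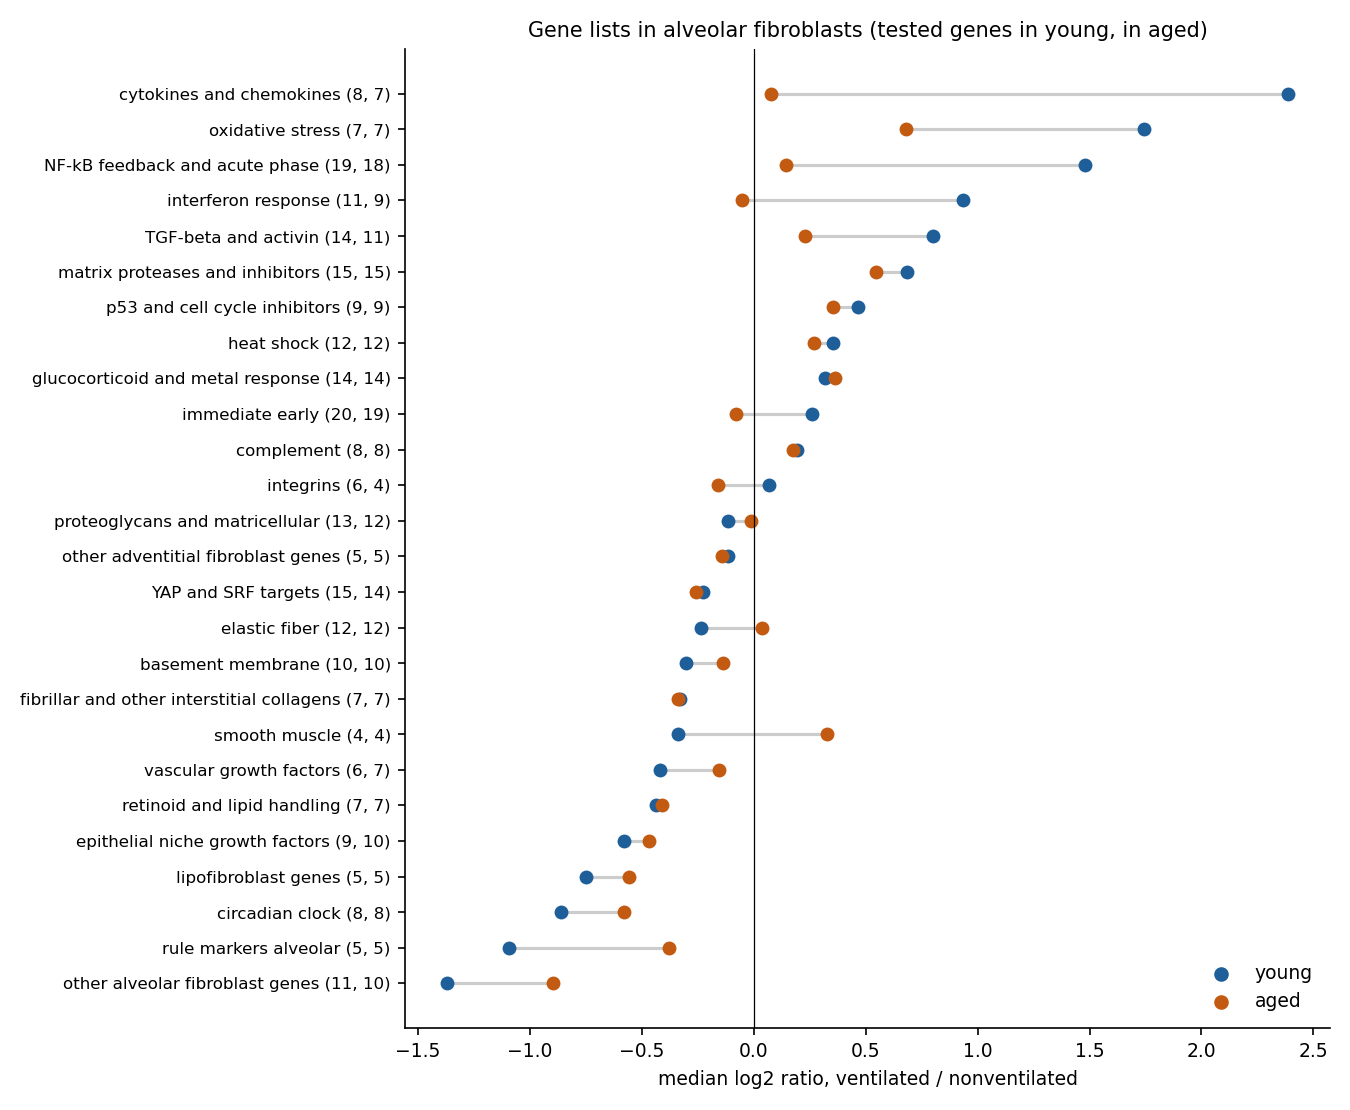
Median log2 ratio of ventilated to nonventilated alveolar fibroblasts for each gene list with at least 4 tested genes at both ages, in young (blue) and aged (orange) mice. The numbers in parentheses are the genes tested at each age. Cytokines and chemokines have medians of 2.39 and 0.08, but 5 of the 8 genes tested in young mice passed the minimum through the ventilated library alone, and the genes tested at the 2 ages are not the same set, which limits any ranking of the lists.

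Of the 11 tested alveolar fibroblast genes that the rule did not use, 7 fell in young mice and none rose, with a median log2 ratio of -1.37 against a background of 10.5% of genes that fell. In aged mice 4 of 10 fell, with a median of -0.90 against 6.77%. *Slc7a10*, *Wnt2* and *Mettl24* in young and *Wnt2* in aged mice were under 50 CPM with ventilation, so that they had to be lower. *Inmt* stood at 6705 CPM without and 1927 CPM with ventilation in young mice, and at 6262 and 2714 CPM in aged mice. *Slc7a10*, an amino acid transporter gene, stood at 166 CPM without and 34.2 CPM with ventilation in young mice, and at 159 and 58.3 CPM in aged mice. *Limch1*, an actomyosin regulator gene, fell from 2911 to 1127 CPM in young mice and went from 2878 to 1647 CPM in aged mice. *Pdgfra* was not lower after ventilation, at 869 and 1074 CPM in young and 711 and 1147 CPM in aged mice.

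The rule markers themselves are given as a description only, since cells with fewer than 3 of them were left out. *Npnt*, which encodes the basement membrane protein nephronectin, stood at 1996 CPM without and 732 CPM with ventilation in young mice, and at 1773 and 757 CPM in aged mice. *Itga8*, which encodes its integrin receptor subunit, stood at 1226 CPM without and 293 CPM with ventilation in young mice, and at 1027 and 322 CPM in aged mice. *Tcf21*, a transcription factor gene, stood at 389 CPM without and 182 CPM with ventilation in young mice, and at 461 and 438 CPM in aged mice, so the young ventilated library alone was low. *Ces1d* stood at 629 and 369 CPM in young and 629.6 and 484 CPM in aged mice and *Col13a1* at 337 and 572 CPM in young and 328 and 352 CPM in aged mice, the latter higher in the young ventilated library than in the others. All 5 markers were found in 74.9% of young nonventilated, 59.3% of young ventilated, 83.7% of aged nonventilated and 70.5% of aged ventilated members. Members with exactly 3 markers numbered 29, 37, 19 and 21, with median depths of 8574, 10949, 11393 and 11939 UMIs. Barcodes with exactly 2 markers, just outside the rule, numbered 80, 57, 57 and 24, with median depths of 10530.5, 10399, 9889 and 10977 UMIs.

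Among growth factors for the epithelium, *Wnt2*, *Bmp3* and *Fgf10* fell at both ages. Of 9 tested genes of that list in young mice, 4 fell (*Wnt2*, *Bmp3*, *Fgf7*, *Fgf10*) and 2 rose (*Fgf2*, *Sfrp1*), and in aged mice 3 of 10 fell (*Wnt2*, *Bmp3*, *Fgf10*) and *Fgf2* rose. Over all tested genes, 10.5% fell and 11.1% rose in young mice, and 6.77% fell and 5.13% rose in aged mice. *Wnt2* and *Bmp3* at both ages and *Fgf7* in young mice were under 50 CPM with ventilation, so that they had to be lower, which leaves *Fgf10* as the fall at each age whose direction the minimum did not fix. *Sfrp1* was under 50 CPM without ventilation and had to be higher, which leaves *Fgf2* as the rise. *Wnt2*, a ligand for type II cell renewal, stood at 120.2 CPM without and 10.1 CPM with ventilation in young mice, and at 128 and 29.5 CPM in aged mice. It fell 11.9-fold (95% counting interval 8.94 to 16.1) in young and 4.32-fold (95% counting interval 3.56 to 5.28) in aged mice. *Fgf10*, the ligand of the epithelial receptor FGFR2b, fell from 210.2 to 89.6 CPM and from 156 to 59.7 CPM. *Fgf7*, another ligand of that receptor, fell from 123 to 46.8 CPM in young mice and went from 102 to 52.1 CPM in aged mice. *Bmp4* went from 72.7 to 48.5 CPM in young mice and from 64.4 to 121 CPM in aged ones, neither 2-fold, and the aged ventilated level was 2.496-fold (95% counting interval 2.14 to 2.91) above the young ventilated one.

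Of 6 tested vascular growth factor genes in young mice, 1 rose and 2 fell, and of 7 in aged mice 1 rose and 1 fell. *Vegfd* stood at 427 CPM without and 112 CPM with ventilation in young mice, and at 423 and 210.2 CPM in aged mice, a fall at both ages. *Angpt1*, the ligand that stabilizes the endothelial TIE2 receptor, stood at 885 CPM without and 297 CPM with ventilation in young mice, and at 925 and 484 CPM in aged mice. It fell 2.98-fold (95% counting interval 2.81 to 3.17) in young mice and 1.91-fold in aged mice, short of the limit. *Vegfa* stood at 111 and 107 CPM in young and 127 and 114 CPM in aged mice. *Angptl4*, which encodes an inhibitor of lipoprotein lipase, rose from 112 to 257 CPM and from 101 to 372 CPM.

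Of 8 tested circadian clock genes, 4 fell and *Bhlhe40* rose in young mice, and 3 fell in aged mice. The labels and methods used here give no time of day for either group, and its part in the result was not tested. *Dbp*, a clock-controlled transcription factor gene, stood at 233 CPM without and 14.1 CPM with ventilation in young mice, and at 170.3 and 36.9 CPM in aged mice. It fell 16.5-fold (95% counting interval 13.01 to 21.2) in young and 4.62-fold (95% counting interval 3.89 to 5.52) in aged mice. Its relatives *Tef* and *Hlf* fell at both ages and *Nr1d1* fell in young mice. *Dbp*, *Tef* and *Hlf* were under 50 CPM with ventilation at both ages, so that they had to be lower. *Per1* stood at 90.4 and 69.9 CPM in young and 84.1 and 60.7 CPM in aged mice.

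*G0s2*, which encodes an inhibitor of the lipase ATGL, stood at 774 CPM without and 48.7 CPM with ventilation in young mice, and at 604 and 108 CPM in aged mice. *Fat3*, a giant protocadherin gene (chr9:15910189-16501285, minus strand, GRCm38), stood at 395 CPM without and 28.7 CPM with ventilation in young mice, and at 367 and 31.4 CPM in aged mice. It fell 13.8-fold (95% counting interval 11.6 to 16.4) in young and 11.7-fold (95% counting interval 9.79 to 14.1) in aged mice, and the 2 log2 ratios differed by 0.24 (95% counting interval -0.11 to 0.59). The potassium channel gene *Kcnb2* and the phosphatase gene *Inpp4b* were also among the 8 largest falls at both ages, at 16.1-fold and 14.8-fold in young and 11.2-fold and 10.9-fold in aged mice. *Selenbp1*, a selenium-binding protein gene, fell from 633 to 53.1 CPM in young mice and from 526 to 142 CPM in aged ones. The mineralocorticoid receptor gene *Nr3c2* fell from 111 to 8.22 CPM and from 133 to 22.8 CPM. *Malat1*, a nuclear RNA whose share rises in damaged cells, stood at 32174 CPM without and 32058 CPM with ventilation in young mice, and at 30779 and 28732 CPM in aged mice.

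The rest of the largest falls were *Pde7b*, *Nr3c2* and *Flt3l* in young mice and *Nav2*, *Ldb2*, *Negr1* and *Ablim3* in aged mice. *Pde7b*, a cAMP phosphodiesterase gene, stood at 574 and 39.6 CPM in young and 378 and 62.4 CPM in aged mice. *Flt3l*, the gene of the FLT3 ligand for dendritic cell growth, stood at 95.1 and 7.07 CPM in young and 57.5 and 10.5 CPM in aged mice. The actin-binding gene *Ablim3* stood at 236 and 32.1 CPM in young and 246 and 34.04 CPM in aged mice and the neuron navigator gene *Nav2* at 362 and 51.4 CPM in young and 497 and 42.4 CPM in aged mice. Each of these was lower in both ventilated libraries than in either nonventilated one. *Sftpc* was among the 8 largest falls in aged mice, with a log2 ratio of -3.99. It was -2.03 without the highest member of each library and 0.14 without all mixed barcodes.

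Of 12 tested heat shock genes, 3 rose (*Hspa8*, *Hsp90aa1*, *Hspb1*) and *Cryab* fell in young mice, and *Hspb1* alone rose in aged mice. The single fall in young mice and the single rise in aged mice are near the shares of all tested genes. *Hspb1*, a small chaperone gene, stood at 760.2 and 1589 CPM in young and 705 and 2179 CPM in aged mice. Of 9 tested p53 targets and cell cycle inhibitors, 4 rose (*Gadd45a*, *Cdkn1a*, *Gadd45g*, *Mdm2*) and *Sesn1* fell in young mice, and *Gadd45a* alone rose in aged mice. *Gadd45a* was under 50 CPM without ventilation at both ages and *Sesn1* under it with ventilation, so that their direction was fixed. Among integrins, *Itga5* and *Itgav* rose and *Itga9* fell of 6 tested in young mice, and none of 4 passed 2-fold in aged mice. *Itga5* was under 50 CPM without ventilation, and its log2 ratio of 1.59 went to -0.11 with at least 2 markers in place of 3. *Itgav*, whose integrins can activate latent TGF-beta, went from 66.7 to 163 CPM in young mice and from 64.2 to 69.7 CPM in aged ones. Of 5 tested lipofibroblast genes, *Angptl4* and the lipid droplet gene *Plin2* rose and *G0s2* and *Fgf10* fell in young mice, and in aged mice the same genes apart from *Plin2* did so. *G0s2* was under 50 CPM with ventilation in young mice, so that it had to be lower there. Of 8 tested complement genes, *Cfb*, under 50 CPM without ventilation, rose in young mice and none changed 2-fold in aged mice. Among genes of retinoid and lipid handling, *Hmgcs1*, which encodes an enzyme of cholesterol synthesis, fell from 73.96 to 31.4 CPM in aged mice. Being under 50 CPM with ventilation, it had to be lower. No tested gene of the mechanosensitive channel or integrated stress response lists passed 2-fold at either age, with 2 and 1 channels and 2 and 2 stress response genes tested in young and aged mice.

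To set these changes beside those of other cells, the same sums were formed for 58 adventitial fibroblasts (the mirror of the rule), 251 pericytes, the *Cdh5*-positive endothelial cells and the *Ptprc*-positive leukocytes of the 4 libraries. *Saa3* rose in leukocytes too, from 0.186 to 1274 CPM in young mice and from 0.351 to 2164 CPM in aged ones, and there the aged ventilated level was the higher one. In pericytes *Saa3* reached 15.3 and 9.47 CPM and in endothelial cells 37.9 and 8.83 CPM. *Tnc* in endothelial cells stood at 0.961 and 30.4 CPM in young and 1.43 and 7.04 CPM in aged mice and in leukocytes at 0.0932 and 11.4 CPM in young and 0.281 and 0.675 CPM in aged mice. In pericytes *Tnc* stood at 40.6 and 45.95 CPM in young and 138 and 0 CPM in aged mice, close together in young mice and lower with ventilation in aged mice, where the nonventilated level was above the 108 CPM of the aged ventilated alveolar fibroblasts. That aged nonventilated level rested on 46 UMIs in 7.84% of 51 pericytes, so a few cells carried it. Adventitial fibroblasts held 2 *Tnc* UMIs, both in the young ventilated library. *Cemip* was at 0 in adventitial fibroblasts of all 4 libraries and at most 3.104 CPM in the other 3 classes. The adventitial class holds 11 to 17 cells per library, which limits what a 0 can show there.

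*Timp1* and *Has1* were more abundant in adventitial fibroblasts, where *Has1* stood at 604 and 1186 CPM in young and 945 and 1793 CPM in aged mice, and *Ccl2* there stood at 74.1 and 1648 CPM in young and 53.98 and 2385 CPM in aged mice. *Ccl2* was thus higher after ventilation at both ages in adventitial fibroblasts, as it was in leukocytes at 127 and 258 CPM in young and 44.7 and 213 CPM in aged mice. *Mt1* rose in every class in young mice, in pericytes from 628 to 3457 CPM and in endothelial cells from 23.3 to 1029.7 CPM. *Wnt2* and *Fat3* were at most 1.71 and 10.6 CPM in the other 4 classes. *G0s2* stood at 222 and 10.3 CPM in young and 162 and 80.04 CPM in aged mice in adventitial fibroblasts, lower with ventilation at both ages as in alveolar fibroblasts. In pericytes it stood at 179 and 114 CPM in young and 123 and 259 CPM in aged mice, lower in young and higher in aged mice. In leukocytes it stood at 94.3 and 188 CPM in young and 58.6 and 113 CPM in aged mice, higher in both ventilated libraries.

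**Figure D5:**
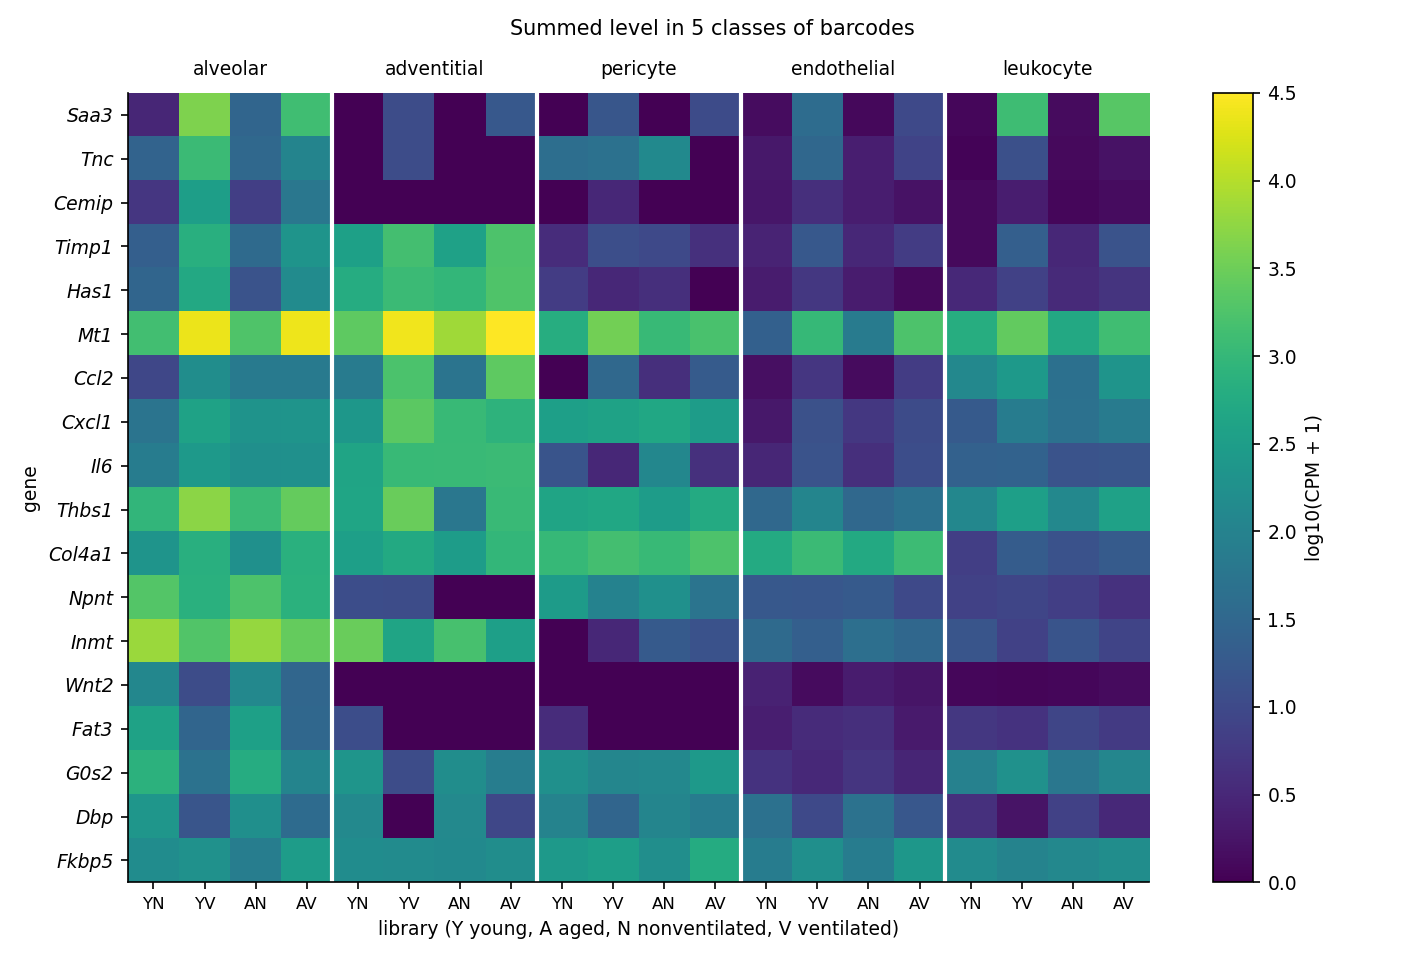
Level of 18 genes in 5 classes of barcodes and 4 pooled libraries, as log10(CPM + 1) in color. *Saa3* is high in ventilated alveolar fibroblasts and leukocytes, *Tnc* and *Cemip* in young ventilated alveolar fibroblasts, and *Mt1* is higher with ventilation in every class of young mice.

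To compare the ages without ventilation, aged nonventilated and young nonventilated alveolar fibroblasts were set against each other. These 2 libraries are also the controls of the comparisons above. Food restriction is described for the aged mice only, so age and diet cannot be told apart, here or after ventilation. Of 3490 genes tested, 29 were at least 2-fold higher in aged mice (0.831%) and 1 was lower (0.0287%), together 0.86%, with a median size of the log2 ratio of 0.13. The 2 highest were *Sftpc* and *Lyz2*, with log2 ratios of 4.19 and 3.06. Without the highest member of each library the ratios were 2.25 and 1.55, and without all mixed barcodes they were 0.04 and 0.75. The 1 fall was the potassium channel gene *Kcnq5*, at 144 and 9.58 CPM. Pericytes hold 8578 and 8899 CPM of this gene, 1 young nonventilated member held 22.1% of its UMIs, and without mixed barcodes the log2 ratio went from -3.88 to 0.21.

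Of 4 tested cytokine and chemokine genes, 3 (*Cxcl1*, *Cxcl10*, *Il6*) were at least 2-fold higher in aged nonventilated fibroblasts, against 0.831% of all tested genes, and *Cxcl10* was under 50 CPM in the young library, so that it had to be higher. None of 13 tested NF-kB feedback and acute-phase genes and none of 7 tested interferon response genes passed 2-fold in either direction. The log2 ratio was above 0 for 12 of the 13 and for all 7. The list medians were 0.44 and 0.37, against -0.007 over all tested genes. Haptoglobin (*Hp*) stood at 26.1 CPM without and 378 CPM with ventilation in young mice, and at 141 and 926 CPM in aged mice. The aged libraries were above the young ones in both conditions, by 5.41-fold (95% counting interval 4.43 to 6.66) without and 2.45-fold (95% counting interval 2.32 to 2.59) with ventilation. *Cxcl1* and *Il6* were 3.96-fold and 2.205-fold higher in aged than in young nonventilated fibroblasts, *Cxcl10* 2.36-fold, *Adamts4* 3.51-fold and *Cdkn1a* 2.19-fold. The noncoding RNA gene *Snhg11* stood at 17.1 CPM without and 8.02 CPM with ventilation in young mice, and at 90.9 and 55.5 CPM in aged mice, and was at or under 5.98 CPM in the other 4 classes. It was too low for testing after ventilation, as was *Pde4c*. The phosphodiesterase gene *Pde4c* stood at 47.99 CPM without and 10.3 CPM with ventilation in young mice, and at 211 and 43.3 CPM in aged mice. The mucin gene *Muc13* stood at 26.1 CPM without and 17.01 CPM with ventilation in young mice, and at 94.3 and 14.5 CPM in aged mice, and the aged nonventilated library was above the other 3. *Hp*, *Adamts4*, *Snhg11*, *Pde4c* and *Muc13* were, like *Cxcl10*, under 50 CPM in the young nonventilated library. They too had to be higher in the aged nonventilated one. *Pde4c* was also higher in aged than in young nonventilated endothelial cells (16.7 and 36.4 CPM), as was *Muc13* (14.6 and 41.2 CPM). In adventitial fibroblasts they went from 37.1 to 146 CPM and from 31.8 to 189 CPM between the ages. In pericytes *Pde4c* stood at 8.12 and 0 CPM and *Muc13* at 0 and 2.99 CPM. Of 7 tested interstitial collagen genes and of 12 tested elastic fiber genes, none differed 2-fold between the ages without ventilation.

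After ventilation, 25 of 3381 tested genes were at least 2-fold higher in aged than in young alveolar fibroblasts (0.739%) and 61 were lower (1.8%), together 2.54%. By the rule for named genes, the 8 largest falls were *Tnc*, *Saa1*, *Lif*, *Cemip*, *Vcan*, *Has1*, *Tslp* and *Timp1*. Of these, *Saa1*, *Lif*, *Vcan* and *Tslp* were under 50 CPM in the aged ventilated library, so that they had to be lower there. The 8 largest rises included *Bnip3*, a mitophagy gene, at 47.3 and 43.4 CPM in young and 51.5 and 131 CPM in aged mice. They also included *Selenbp1*, *Bmp4*, *Hp* and *Lpin1*, which encodes a phosphatidate phosphatase. *Bnip3* and *Bmp4* were under 50 CPM in the young ventilated library, so that they had to be higher in the aged one. *Selenbp1* was higher in the aged than in the young ventilated library (142 against 53.1 CPM) and had been alike without ventilation (526 against 633 CPM). The elastin gene *Eln* stood at 169 and 112 CPM in young and 138 and 257 CPM in aged mice, and was the one elastic fiber gene at least 2-fold higher in the aged ventilated than in the young ventilated library.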

How the data were processed

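Lungs of 4 groups of mice were measured by droplet scRNA-Seq (10x Genomics 3′ chemistry), with 1 library per group from 3 pooled animals. The deposited values are UMI counts per gene and barcode, which the authors made with Cell Ranger 7.0.0 at default settings on the mm10 reference. By default this version also counts intronic reads. The deposited counts had been filtered to cells and were otherwise used as given. No doublet caller was run. Upper limits on genes, the exclusion of *Ptprc* and *Cdh5* and a variant without mixed barcodes took its place.

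UMIs of the members were summed per library and divided by their total (CPM). Log2 ratios used CPM with 1 UMI added to each sum. Genes averaging 50 CPM or more in both libraries together, with 20 UMIs or more in 1 library, were tested and called at 2-fold. Ratio intervals are exact conditional binomial, shares Clopper-Pearson, and differences between ratios use the delta method. The members held 4201475 to 5233705 UMIs per library. The intervals and the 2-fold call were tested on simulated Poisson sums with planted changes. These sums follow the model of the intervals and leave out the uneven spread of UMIs among cells. Computation used Python 3.11.15, numpy 2.4.6, scipy 1.17.1, pandas 2.3.3 and matplotlib 3.10.9. Genes were named by rule: the 8 largest rises and falls per comparison among genes detected in at least 10% of members of the higher library, list members past 2-fold, and markers. Other genes of the lists were named after their values were seen. Members and lists were chosen with earlier results of these data known. Alternatives changed cell limits, marker number, mixed barcodes, scaling, cell weighting, depth per cell and the CPM minimum, and 1 more, leaving out each gene's highest member, was chosen after seeing the data. Some results are not reported here.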

Additional observations from a re-analysis of the deposited data

Results flagged for a closer look

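The log2 ratio of ventilated to nonventilated alveolar fibroblasts had opposite signs in young and aged mice for 7 named genes in which the counting intervals of both ratios excluded no change and at least 1 ratio was 2-fold. Other named genes with opposite signs, such as *Ccl2* and *Nfkb1*, lay outside these limits. Each age had 1 library per condition, and the differences were not tested. The interferon-induced chemokine gene *Cxcl10* had 2.37 in young and -0.59 in aged mice, a difference of -2.96, and 1 aged ventilated member held 43.2% of its UMIs there. *Tnfaip3*, the gene of the NF-kB inhibitor A20, had 1.80 and -0.60, a difference of -2.40. *Rhbdd2* had 1.00 and -1.06, a difference of -2.06. The NF-kB inhibitor gene *Nfkbia* had 1.20 and -0.35, a difference of -1.56. *Adamts9*, a matrix protease gene, had 0.45 and -1.06, a difference of -1.52. The interferon-induced GTPase gene *Iigp1* had 1.05 and -0.08, a difference of -1.13. *Tsc22d3*, the glucocorticoid-induced leucine zipper gene, went the other way, with -1.13 in young and 0.35 in aged mice, a difference of 1.47.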

How the results depend on the processing

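No paired analysis was possible because each group was 1 pooled library, which also leaves no replicate to leave out. Of the recomputed ratios of 219 gene results, 1586 stayed within the counting interval, 381 left it and 4 changed sign. Of the recomputed medians of 105 list results, 539 stayed within the typical counting error of their genes, 78 moved further and 13 changed sign. Member shares moved most without mixed barcodes, to 7.48% in young nonventilated, 7.69% in young ventilated, 4.93% in aged nonventilated and 6.39% in aged ventilated mice. With at least 2 markers they were 13.3%, 11.7% and 11.2% in the first 3 of these libraries, and with at least 4 markers 8.87% in young ventilated mice. At most 5% mitochondrial UMIs gave 11.6% in young ventilated and 11.1% in aged nonventilated mice, and the limits of the study 8.13% in aged nonventilated mice.

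Without a CPM minimum, 21.7% of genes were lower with ventilation in young and 12.8% in aged mice. For age without ventilation, the share higher was 1.38% at a minimum of 10 CPM, 3.47% with none and 0.387% at 100 CPM. The share lower, 1 gene, became 0.142% with the limits of the study, 0.531% with 2 markers, 0% with 4 markers, 0.0574% without mixed barcodes, 0.254% with thinned cells, 0.114% with the mean of per-cell CPM, and 0.411%, 1.48% and 0% at 10 CPM, no minimum and 100 CPM. For age with ventilation, the share higher was 1.41% with the limits of the study, 1.73% with thinned cells, 2.75% at 10 CPM and 5.91% with no minimum, and the share lower was 3.14% with no minimum.

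Signs changed without mixed barcodes for *Sftpc* (0.14) and *Lyz2* (0.0770) with ventilation in aged mice and for *Kcnq5* (0.21) with age, and with 2 markers for *Itga5* (-0.11) with ventilation in young mice. The smooth muscle median became 0.00883 in young ventilated against nonventilated mice at 5% mitochondrial UMIs, -0.29 at that limit and -0.20 with 2 markers in aged mice, 0.10 with 4 markers and 0.42 without mixed barcodes for age without ventilation, and -0.69 at 5% mitochondrial UMIs for age with ventilation. The proteoglycan median for young mice became 0.10 with the limits of the study, 0.11 at 5% mitochondrial UMIs and 0.0298 with 2 markers, and -0.0477 with the limits of the study for age without ventilation. The medians of other alveolar fibroblast genes (0.0195, 2 markers) and basement membrane genes (0.0259, without mixed barcodes) turned for age without ventilation, and that of vascular growth factors (0.0267, 5% mitochondrial UMIs) for ventilation in aged mice. For these results the cause was not tested.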

Other observations

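The genes that fell were long. The median genomic span of the genes at least 2-fold lower with ventilation was 87.9 kb in young and 112 kb in aged mice, against 38.9 and 35.4 kb for all tested genes and 34.3 and 29.3 kb for the genes at least 2-fold higher. Genes over 100 kb made up 47.8% and 55.9% of the lower genes and 25.1% and 24.4% of the tested genes. Intronic reads are counted by default in the version of Cell Ranger used, and their part in these values was not tested.

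In the aged ventilated library, thinned members with a *Saa3* UMI had *Timp1* in 16 of 44 (36.4%, 95% Clopper-Pearson interval 22.4 to 52.2) and members without one in 36 of 185 (19.5%, 14.02 to 25.9). For *Il6* the shares were 34.1% (20.5 to 49.9) and 17.8% (12.6 to 24.1). In the young ventilated library they were 45.5% and 45.7% for *Timp1* and 28.3% and 29.9% for *Il6*. All of these pairs of intervals overlapped.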
